A study of Mus musculus with 10 samples.

Results

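DNA replication machinery was followed as a list of 41 genes across cultured mouse mesenchymal stem cells. The genes were taken by name from the array's probes, with the brightest probe standing for each gene. The list was chosen with earlier results of these data known. All 41 were among the 22595 genes tested, and the probe used for each was well above background on all 10 arrays. By role, 4 genes act in licensing and entry into S phase, 11 in the replicative helicase, 6 are polymerase or primase subunits, 10 act in the sliding clamp, its loader, single-strand binding and strand joining, 4 supply nucleotides, and 6 copy or silence chromatin behind the fork.

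The series measured total RNA on single-colour arrays in 5 groups of 2 independent cultures from mice of the FVB background, collected while growing exponentially. Wild-type ASC, which are mesenchymal stem cells from fat, and wild-type BM-MSC, from bone marrow, carried intact Rb1 and Trp53, the genes of the retinoblastoma protein and p53. Null ASC and null BM-MSC were labelled as Rb/p53 double knockout. The culture protocol describes loxP-flanked alleles, 10 days of osteogenic induction, and then an adenovirus that expressed Cre from the CMV promoter, while the source labels name double-null mice. The fifth group, the tumor line, was labelled both as a tumor and as a cell line, and was grown from a subcutaneous tumor that osteogenic-primed null BM-MSC formed in immunodeficient NSG mice. Its duplicates come from 1 line. The labels give no osteogenic induction and no virus for the wild-type cells, so loss of both genes, priming and infection cannot be told apart in any comparison of null with wild-type cells. Cells were used between passages 2 and 5.

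A cell copies its genome once per cycle. Origins are licensed in G1 when Cdc6 and Cdt1 load the ring-shaped Mcm helicase, geminin (Gmnn) blocks loading again, and the Gins complex joins Mcm to make the active helicase. Primase and polymerase alpha start each strand, polymerases delta and epsilon extend it around the clamp Pcna, Fen1 and Lig1 join the lagging strand, and the histone chaperone Chaf1a/Chaf1b and the methyltransferase Dnmt1 restore chromatin. The retinoblastoma protein holds the E2F transcription factors in check, many replication genes are known E2F targets, and p53 restrains the same genes through p21.

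Each level is the log2 of a probe's signal over the array's 75th percentile, with its SD over 2 arrays. Each change is a difference of group means on that log2 scale ± SE from 1 limma fit of all 5 groups. Changes with an adjusted p (Benjamini-Hochberg over all genes tested) under 0.05 are called higher or lower. Such p-values rest on the spread of duplicate cultures alone. In bulk RNA, fewer cells in S phase and less replication RNA per cell cannot be told apart.

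Well above background were 53.3% to 58.4% of the spots of an array. The 75th percentile lay between 484 and 622 scanner units, and duplicates correlated across genes at r = 0.994 to 0.996. Rb1 stood at 1.31 in wild-type ASC and 1.91 ± 0.01 in wild-type BM-MSC. Null ASC (-1.94 ± 0.04) and the tumor line (-1.98 ± 0.01) had the lowest Rb1 levels, with null BM-MSC at 0.60 ± 0.08. Trp53 stood at 1.06 ± 0.07 and 0.77 ± 0.08 in wild-type ASC and BM-MSC, at -4.80 ± 0.44 in null ASC with 1 of 2 arrays above background, and at -0.89 and -1.12 on the null BM-MSC arrays. In the tumor line its probe was not well above background. Both targeted genes were thus lower in every group labelled null, and null BM-MSC kept more signal of each than null ASC (2.53 ± 0.05 higher for Rb1), with both probes well above background on both of their arrays. The place of these probes relative to the removed exons was not known here, and whether some null BM-MSC kept intact alleles was not tested. Every value of null BM-MSC is that of cultures with this remaining signal. All 12 mesenchymal markers were well above background in every group.

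The summed signal of 12 myeloid markers, in multiples of the 75th percentile, was 28.4 to 33.1 in wild-type ASC, 16.0 to 17.2 in null ASC, 29.2 to 29.4 in wild-type BM-MSC, 23.4 to 24.4 in null BM-MSC, with the tumor line at 14.3 to 15.2. Of the 12, those well above background on both arrays numbered 9 in wild-type and 7 in null ASC, 8 in both groups of BM-MSC, and 11 in the tumor line. Tyrobp, C1qa and Laptm5 were well above background in the tumor line only, and Cd14 and Lyz2 also had their highest mean there. Ptprc, Adgre1, Csf1r, Itgam and Cd74 had their lowest mean in the tumor line. Itgam, which fell by 1.02 ± 0.12 in null ASC, made up much of these sums, and single markers went both ways. From wild type to null 1 marker rose (Cd74, 1.84 ± 0.26), 4 fell and 7 did not pass in ASC (median -0.07). Of all genes tested 20.5% rose and 20.9% fell there. In BM-MSC 2 rose, of which Fcer1g by 1.71 ± 0.30, 6 fell and 4 did not pass (median -0.40), against 19.1% and 20.4% of all genes. The part of these markers in the results was not tested. The 6 osteogenic markers summed to 0.447 to 0.448 in wild-type ASC and 0.488 to 0.698 in null ASC, against 26.3 to 27.7 in wild-type BM-MSC, 81.5 to 84.4 in null BM-MSC, with the tumor line at 128 to 135. The last sum was nearly all Spp1, at 7.03 in the tumor line. The other 5 osteogenic markers were lower there than in null BM-MSC, against 35.0% of all genes. The probes of Sp7, Alpl and Bglap were well above background on 0 of the tumor line arrays. The 4 arrays of null cells shared a line of positions on the first slide, the 4 wild-type arrays the other line, and both tumor line arrays sat on a second slide. Position and null status, and slide and tumor line, cannot be told apart.

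Across the 5 groups the replication genes kept much the same order. Wild-type cells were lowest, null BM-MSC stood above them, null ASC above null BM-MSC, and the tumor line was highest. For 18 of 41 genes the full order of means was wild-type ASC, wild-type BM-MSC, null BM-MSC, null ASC, tumor line. For 6 more it differed only in the order of the wild-type groups. The share of all genes with this order was not counted. The tumor line had the highest mean for 29 genes (70.7%, against 28.9% of all genes tested). Null ASC were highest for 8 (19.5%, near the 16.6% of all genes). Wild-type ASC had the lowest mean for 29 genes (70.7%, against 16.0% of all genes). Wild-type BM-MSC were lowest for 11 (26.8%, against 15.8%). The exceptions at the top were the ribonucleotide reductase genes Rrm1 and Rrm2, highest in wild-type BM-MSC, and Pcna and Prim2, highest in null BM-MSC. Gins3 alone was lowest in null BM-MSC.

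**Figure D1:**
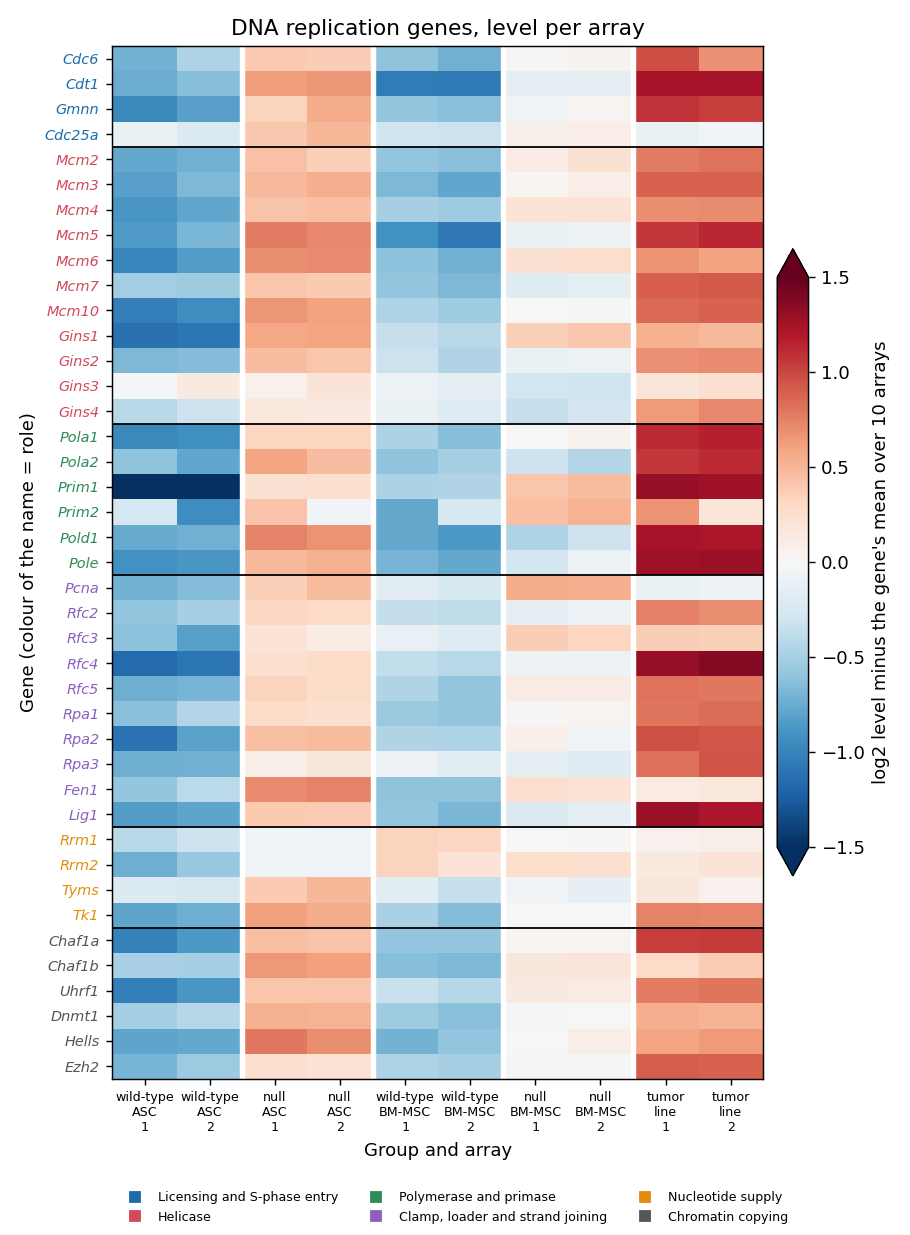
Level of each of the 41 replication genes (rows, names coloured by role) on each of the 10 arrays (columns), as the log2 level minus that gene's mean over the arrays; blue is below and red above that mean, and the scale ends at 1.5. The median over the 41 genes lay between -0.74 and -0.72 on the wild-type ASC arrays and between 0.78 and 0.79 on the tumor line arrays, and the rows of Rrm1, Rrm2, Gins3 and Pcna depart from the common pattern.

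In the wild-type groups the genes moved together between duplicates too. On the second wild-type ASC array 33 of 41 members were higher than on the first, by a median of 0.07, while on the second wild-type BM-MSC array only 5 were higher, with a median difference of -0.07. The medians over all genes tested were 0.00385 and -0.02. The members are therefore not independent measurements of a culture.

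Promoter sequences of 33 of the 41 genes were found in the RefSeq set (build GRCm38.p6, 250 bases before to 50 after each start). They are shown because E2F words are the feature these genes are best known to share. The words searched, on both strands and counting overlapping matches, were TTTCCCGC, TTTCGCGC, TTTGCCGC and TTTGGCGC. At least 1 occurred in 16 of 40 member promoters (40%), which belong to 16 genes, against 744 of 32851 promoters in the whole set (2.26%). The words are rich in G and C, and promoters of like base composition were not compared. By role, 3 of 3 licensing genes, 5 of 7 helicase genes, 2 of 4 polymerase genes, 2 of 9 clamp and strand-joining genes, 4 of 6 chromatin genes and 0 of 4 nucleotide supply genes held a word. The stretches below are 100 bases upstream of the start, 5′ to 3′ on the gene's strand, with the words of either strand in capitals. Mcm5, Mcm6, Cdc6, Pola1, Hells and Uhrf1 stand for genes of different roles that rose in both null cell types, Gins3 holds a word but did not pass in either, and Rrm1, the gene that fell in null BM-MSC, has none.
Mcm5: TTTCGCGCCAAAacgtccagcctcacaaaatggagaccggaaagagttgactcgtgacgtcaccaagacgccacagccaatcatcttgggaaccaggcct
Mcm6: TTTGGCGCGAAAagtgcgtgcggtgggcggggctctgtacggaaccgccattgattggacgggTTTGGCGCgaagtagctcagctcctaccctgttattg
Cdc6: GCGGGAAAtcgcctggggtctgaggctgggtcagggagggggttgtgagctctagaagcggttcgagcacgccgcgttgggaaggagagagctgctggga
Pola1: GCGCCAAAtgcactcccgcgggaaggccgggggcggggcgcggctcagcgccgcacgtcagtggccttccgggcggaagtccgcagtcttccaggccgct
Hells: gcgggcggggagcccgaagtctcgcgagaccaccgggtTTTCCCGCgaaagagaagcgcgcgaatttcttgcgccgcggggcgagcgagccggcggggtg
Uhrf1: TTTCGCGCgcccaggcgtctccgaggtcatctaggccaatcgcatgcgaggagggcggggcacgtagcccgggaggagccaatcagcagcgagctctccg
Gins3: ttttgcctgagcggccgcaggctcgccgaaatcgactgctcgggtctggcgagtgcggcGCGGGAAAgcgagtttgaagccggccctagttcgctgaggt
Rrm1: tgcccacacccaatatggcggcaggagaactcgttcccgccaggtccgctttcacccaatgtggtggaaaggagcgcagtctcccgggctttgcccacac

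These stretches lie at chr8:75109356-75109455 (Mcm5, plus strand), chr1:128359716-128359815 (Mcm6, minus), chr11:98908013-98908112 (Cdc6, plus) and chrX:93632194-93632293 (Pola1, minus). The others lie at chr19:38930890-38930989 (Hells, plus), chr17:56304128-56304227 (Uhrf1, plus), chr8:95633459-95633558 (Gins3, plus) and chr7:102441595-102441694 (Rrm1, plus), all in GRCm38.p6. In the Mcm5 stretch 2 words overlap at the far end, 153 bases before the start, and Mcm6 carries 3 words in its stretch, of which 2 overlap. In the single word of Hells the first base lies 62 bases before the start. Among the genes with a promoter, those with a word (n = 16) and without (n = 17) had like median changes, 1.23 and 1.14 from wild-type to null ASC and 0.54 and 0.56 from wild-type to null BM-MSC. From wild-type ASC to wild-type BM-MSC the medians were -0.03 with a word and 0.35 without. The CCAAT box was found in 24 of 40 member promoters (60%, against 37.4% of all), and TTTGAA, the core of an element known from genes of late cell cycle, in 4 (10%, against 17.9%).

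Per-array levels show how tight the duplicates were. Cdt1, which loads the Mcm ring and has the widest range of the licensing genes, read 2.87 and 2.98 in wild-type ASC, 2.57 and 2.56 in wild-type BM-MSC, 4.25 and 4.29 in null ASC, 3.48 and 3.48 in null BM-MSC, with the tumor line at 4.86 and 4.85 (probe at chr8:125096893-125096952, plus strand, mm9). No pair of groups overlapped, and every step between group means was larger than the gap between duplicates. Mcm5, a subunit of the ring (probe at chr8:77651350-77651410, plus strand, mm9), read 2.29 and 2.45, 2.22 and 2.06, 3.90 and 3.86, 3.03 and 3.05, and 4.19 and 4.26 in the same order of groups. Again the groups did not overlap, and the wild-type pairs lay close together below all null arrays.

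Prim1, the catalytic primase subunit that lays the RNA primer (probe at chr10:127466952-127467011, plus strand, mm9), had the widest range of all members, 2.79. Its levels were 2.13 and 2.11 in wild-type ASC, 3.14 and 3.17 in wild-type BM-MSC, 3.84 and 3.86 in null ASC, 4.03 and 4.09 in null BM-MSC, with the tumor line at 4.92 and 4.89. Like Rrm2 and unlike most members, it was higher in marrow than in fat cells in both genotypes. Rfc4, a subunit of the clamp loader (probe at chr16:23114024-23114083, minus strand, mm9), read 2.34 and 2.41, 3.14 and 3.09, 3.75 and 3.78, 3.43 and 3.44, and 4.81 and 4.89 in that order. Both tumor line arrays stood well above all others.

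Tk1, the thymidine kinase that recovers thymidine for DNA synthesis (probe at chr11:117676845-117676904, minus strand, mm9), read 2.94 and 2.99 in wild-type ASC, 3.25 and 3.09 in wild-type BM-MSC, 4.35 and 4.29 in null ASC, 3.74 and 3.72 in null BM-MSC, with the tumor line at 4.48 and 4.46. Chaf1a, the large subunit of chromatin assembly factor 1 (probe at chr17:56206969-56207028, plus strand, mm9), read 1.82 and 1.97, 2.24 and 2.24, 3.28 and 3.25, 2.86 and 2.86, and 3.86 and 3.87. Both genes followed the common order with no overlap between any groups.

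Rrm1, the large subunit of ribonucleotide reductase, which makes deoxyribonucleotides, did not follow that order. It read 3.73 and 3.84 in wild-type ASC, 4.49 and 4.46 in wild-type BM-MSC, 4.11 and 4.09 in null ASC, 4.16 and 4.17 in null BM-MSC, with the tumor line at 4.21 and 4.24 (probe at chr7:109617223-109617283, plus strand, mm9). Wild-type BM-MSC were highest and the 3 groups of null origin lay within a narrow band. Its partner subunit Rrm2 read 4.31 and 4.46, 5.37 and 5.24, 4.98 and 4.99, 5.30 and 5.29, and 5.18 and 5.23. Here too wild-type ASC were lowest and wild-type BM-MSC overlapped null BM-MSC, with the tumor line just under both.

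**Figure D2:**
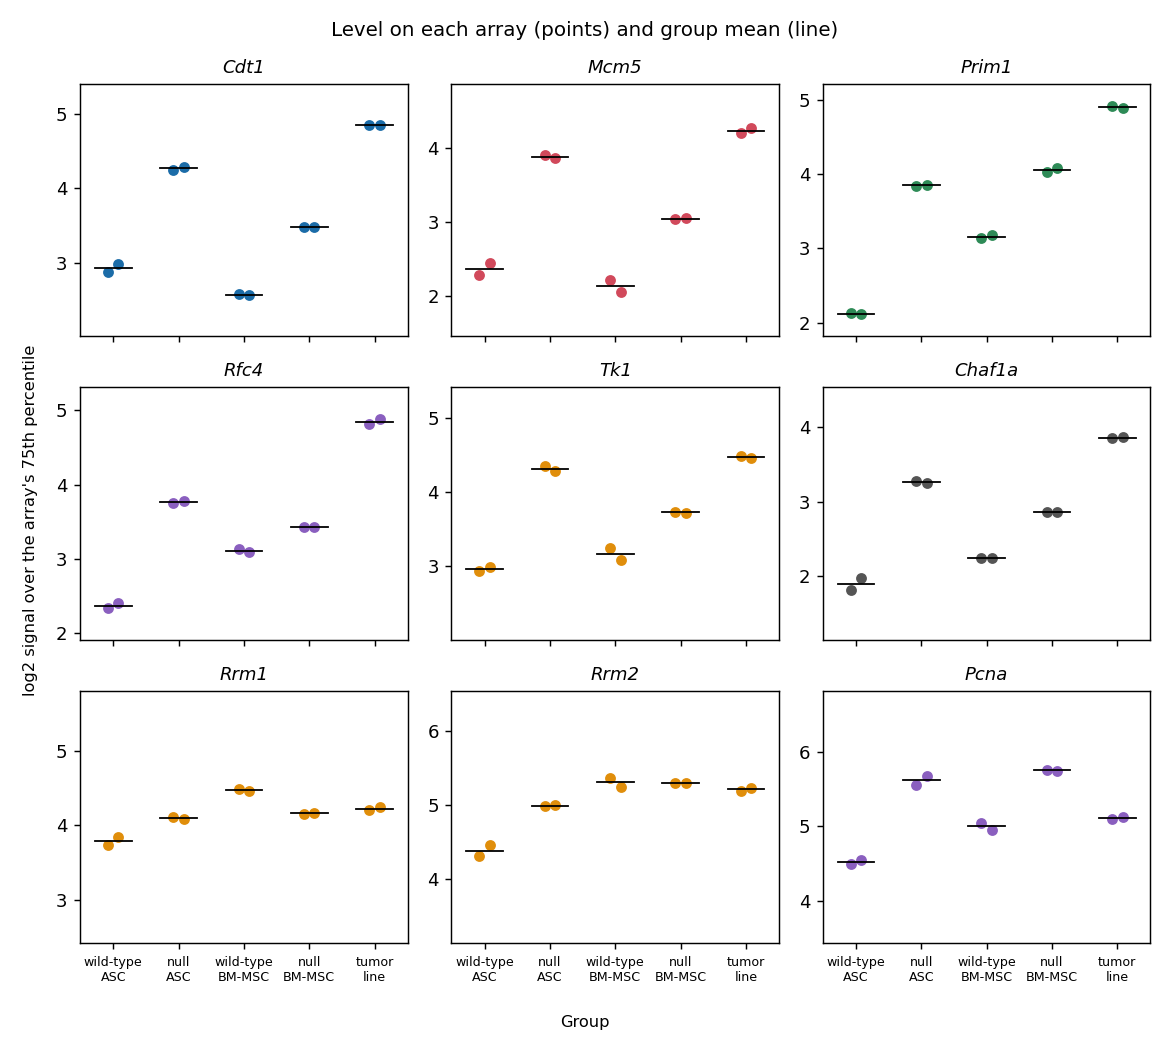
Level on each array (points) and group mean (line) of 9 replication genes in the 5 groups, as log2 signal over the array's 75th percentile; panels have their own axis ranges of equal span, and colours give the role. Cdt1, Mcm5, Rfc4, Tk1 and Chaf1a rise in both null groups and are highest in the tumor line, while Rrm1 and Rrm2 are highest in wild-type BM-MSC and Pcna is highest in null BM-MSC.

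In fat cells, null cultures expressed nearly the whole machinery at a higher level than wild-type cultures. From wild-type to null ASC 39 of 41 genes rose, 2 did not pass and 0 fell, and 26 of the rises were at least 2-fold. Of all genes tested 20.5% were called higher, 20.9% lower and 9.07% changed at least 2-fold. The median member was 2.30-fold higher, at a log2 change of 1.20, against -0.02 over all genes tested. Both null arrays lay above both wild-type arrays for 40 genes, against 33.2% of all genes.

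All 4 licensing genes rose in null ASC, from Cdc25a (0.61 ± 0.06), the phosphatase that activates Cdk2 at the start of S phase, to Cdt1 (1.34 ± 0.05, or 2.53-fold). Of the helicase genes 10 of 11 rose, from Gins4 (0.51 ± 0.06) to Gins1 (1.69 ± 0.05, 3.22-fold). Gins3, the subunit missing from that count, stood at 0.07 ± 0.07 (adjusted p = 0.479). Among polymerase genes 5 of 6 rose, from Pola2 (1.22 ± 0.09), the regulatory subunit of polymerase alpha, to Prim1 (1.73 ± 0.04, 3.31-fold). The regulatory primase subunit Prim2 read 0.79 ± 0.31 (adjusted p = 0.0855) from duplicates that lay far apart, at -2.36 and -3.02 in wild-type and -1.66 and -2.13 in null ASC.

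All 10 clamp and strand-joining genes rose in null ASC, from Rpa1 (0.80 ± 0.07) to Rpa2 (1.42 ± 0.10), both subunits of the protein that coats single-stranded DNA. The 4 nucleotide supply genes rose too, by less for Rrm1 (0.31 ± 0.05, 1.24-fold) than for Tk1 (1.35 ± 0.06, 2.55-fold), with a median of 0.63. The rise of Rrm1 did not pass with the array median as the scale (adjusted p = 0.116). All 6 chromatin genes rose, from Ezh2 (0.85 ± 0.06), the histone methyltransferase of Polycomb, to Hells (1.52 ± 0.06, 2.88-fold), a nucleosome remodeller that supports DNA methylation.

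In marrow cells the same comparison gave a smaller shift with more exceptions. From wild-type to null BM-MSC 34 of 41 genes rose, 6 did not pass and Rrm1 fell, with 0 changes that reached 2-fold. Of all genes tested 19.1% were called higher, 20.4% lower and 8.18% changed at least 2-fold. The median change of the members was 0.56 (1.48-fold), against 0.00340 over all genes tested. Both null arrays lay above both wild-type arrays for 36 genes (35.4% of all genes) and below for 3 (35.7%).

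All 4 licensing genes rose in null BM-MSC, from Cdc25a (0.40 ± 0.06) to Cdt1 (0.92 ± 0.05, 1.89-fold). Of the helicase genes 9 of 11 rose, from Gins2 (0.30 ± 0.06) to Mcm6 (0.91 ± 0.06, 1.89-fold), and all 7 Mcm genes were among them. Gins3 and Gins4 read -0.17 ± 0.07 and -0.17 ± 0.06 (adjusted p = 0.125 and 0.0800), each with both null arrays below both wild-type arrays. Of the polymerase genes 5 of 6 rose, from Pold1 (0.43 ± 0.06), the catalytic subunit of polymerase delta, to Prim2 (0.99 ± 0.31, adjusted p = 0.0440), whose call was lost in 7 of 15 alternatives. Pola2 read 0.17 ± 0.09 (adjusted p = 0.176).

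Of the clamp and strand-joining genes 9 of 10 rose in null BM-MSC, from Rfc2 (0.25 ± 0.05) to the flap endonuclease Fen1 (0.83 ± 0.06, 1.78-fold). Rpa3 read -0.05 ± 0.06 (adjusted p = 0.600). The 6 chromatin genes all rose, from Ezh2 (0.47 ± 0.06) to Chaf1b (0.83 ± 0.05, 1.78-fold). Nucleotide supply was the role that departed. Tk1 rose (0.56 ± 0.06), Rrm1 fell (by 0.31 ± 0.05 on the log2 scale, 1.24-fold), and Rrm2 (-0.01 ± 0.07) and Tyms (0.17 ± 0.08), which makes thymidylate, did not pass. The fall of Rrm1 did not pass with the array median as the scale (adjusted p = 0.0951).

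**Figure D3:**
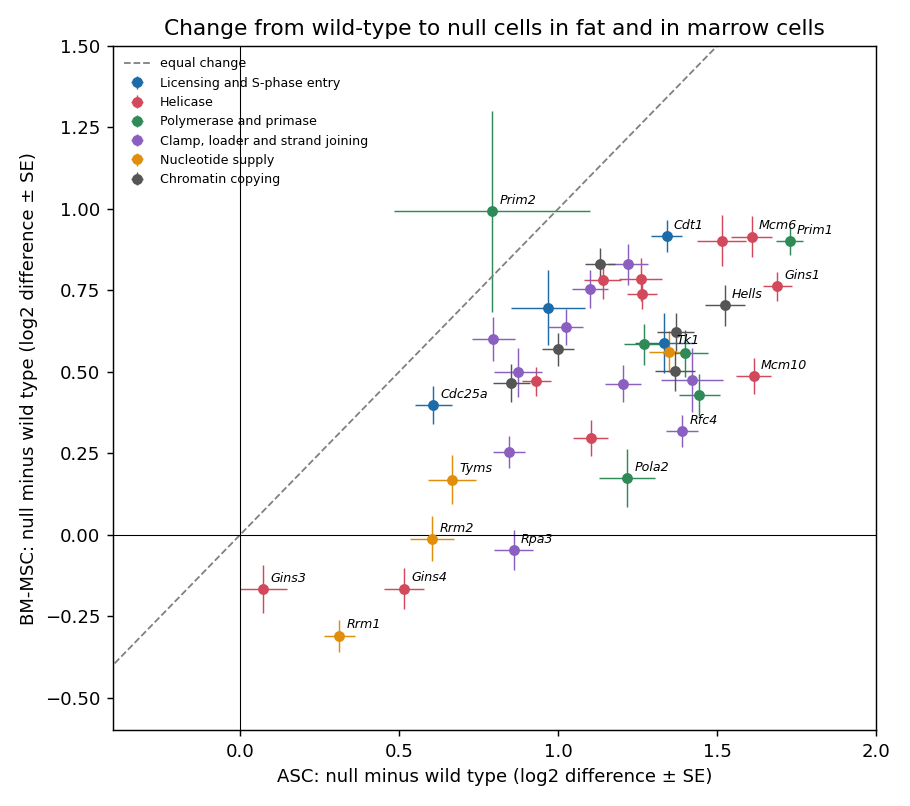
Change of each of the 41 replication genes from wild type to null in ASC (horizontal axis) and in BM-MSC (vertical axis), as log2 differences ± SE from limma; colours give the role and the dashed line marks equal changes. All points but Prim2 lie below the dashed line. In BM-MSC Rrm1, Gins3, Gins4, Rpa3 and Rrm2 lie below 0, of which only Rrm1 was called lower.

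The change from wild type to null was more positive in fat than in marrow cells for 40 of 41 genes, and the difference itself was tested. The change in BM-MSC was lower than the change in ASC for 36 genes, higher for 0, and 5 did not pass, against 16.8% of all genes tested called lower and 15.0% higher. Those 36 include Rrm1, which fell in BM-MSC, and Rrm2, Rpa3, Gins4, Pola2 and Tyms, which did not pass there. Of the members 4 differed at least 2-fold, against 9.85% of all genes. The median difference was -0.62, against 0.00582 over all genes. The members that did not pass were Cdc6 (-0.27 ± 0.16), Cdc25a (-0.21 ± 0.08), Gins3 (-0.24 ± 0.10), Prim2 (0.20 ± 0.44) and Rpa1 (-0.20 ± 0.10). Across the 41 members the changes in the 2 tissues went together with r = 0.671 and a rank correlation of 0.498, as a description over genes that share arrays and are not independent.

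By role the difference ran from Cdt1 (-0.42 ± 0.07) to Gmnn (-0.75 ± 0.13) in licensing, and from Mcm2 (-0.36 ± 0.08) to Mcm10 (-1.13 ± 0.08), which activates the loaded helicase. It ran from Pola1 (-0.68 ± 0.09) to Pola2 (-1.04 ± 0.13) among polymerases and from Pcna (-0.35 ± 0.08) to Rfc4 (-1.07 ± 0.07) in the clamp group. In nucleotide supply it ran from Tyms (-0.50 ± 0.11) to Tk1 (-0.79 ± 0.09), and in the chromatin group from Chaf1b (-0.30 ± 0.07) to Uhrf1 (-0.86 ± 0.09), which brings Dnmt1 to newly copied DNA. The targeted genes moved with this difference. Rb1 fell by 3.24 ± 0.05 in ASC and by 1.32 ± 0.05 in BM-MSC, and Trp53 by 1.77 ± 0.20 in BM-MSC. In null ASC the Trp53 probe was above background on 1 of 2 arrays, so no size is given for its fall there. Their part in the difference was not tested. With the array median as the scale 21 members were called lower instead of 36, and the call of Rfc3 was lost in 12 of 19 alternatives.

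Among wild-type cells marrow and fat cultures differed little and less uniformly. From wild-type ASC to wild-type BM-MSC 22 of 41 genes were higher, 3 lower and 16 did not pass, against 25.8% of all genes called higher and 28.1% lower, with a median of 0.18 against -0.04. Cdt1 (-0.36 ± 0.05), Mcm5 (-0.22 ± 0.08) and Chaf1b (-0.16 ± 0.05) were lower in marrow, the calls of Mcm5 and Chaf1b each lost in 10 of 15 alternatives. In licensing Gmnn was higher (0.29 ± 0.09), and in the helicase 6 genes were, from Gins4 (0.22 ± 0.06) to Gins1 (0.72 ± 0.05). Prim1 showed the largest difference of all members (1.04 ± 0.04, 2.05-fold), with Pola1 (0.39 ± 0.06) the only other polymerase gene higher.

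In the clamp group 8 of 10 were higher in wild-type marrow, from Rfc2 (0.17 ± 0.05) to Rfc4 (0.74 ± 0.05). Nucleotide supply genes included Tk1 (0.20 ± 0.06), Rrm1 (0.69 ± 0.05) and Rrm2 (0.92 ± 0.07, 1.89-fold), and the chromatin genes Chaf1a (0.35 ± 0.06) and Uhrf1 (0.58 ± 0.06) were higher. Cdc6, Cdc25a, Mcm2, Mcm3, Mcm7, Gins3, Pola2, Prim2, Pold1, Pole, Rpa1, Fen1, Tyms, Dnmt1, Hells and Ezh2 did not pass, at -0.17 to 0.16. Counts here moved with the processing. With only these groups in the fit 13 were higher and 1 lower, and over the fits that leave out 1 array 15 to 20 were higher and 1 to 4 lower. The calls of Gmnn and Tk1 were lost in 9 and 8 of 15 alternatives.

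Among null cells the order of the tissues was the other way. From null ASC to null BM-MSC 35 of 41 genes were lower, 2 higher and 4 did not pass, against 29.6% of all genes called lower and 25.9% higher, with a median of -0.42 against -0.02. All 4 licensing genes were lower, from Cdc6 (-0.35 ± 0.12) to Cdt1 (-0.79 ± 0.05), and all 11 helicase genes, from Gins1 (-0.21 ± 0.05) to Mcm5 (-0.83 ± 0.08). Pola1 (-0.30 ± 0.06) and Pold1 (-1.10 ± 0.06, 2.14-fold lower) bounded the 4 polymerase genes that were lower, while Prim1 was higher (0.21 ± 0.04) and Prim2 read 0.29 ± 0.31.

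In the clamp group 8 of 10 were lower in null marrow than in null fat cells, from Rfc5 (-0.19 ± 0.06) to Lig1 (-0.56 ± 0.06), the ligase that seals lagging-strand fragments. Pcna (0.13 ± 0.06) and Rfc3 (0.19 ± 0.08) did not pass. Tyms (-0.53 ± 0.08) and Tk1 (-0.59 ± 0.06) were lower, Rrm2 higher (0.30 ± 0.07), and Rrm1 read 0.07 ± 0.05. All 6 chromatin genes were lower, from Ezh2 (-0.25 ± 0.06) to Hells (-0.69 ± 0.06). With the array median as the scale 19 members were called lower instead of 35. The call of Cdc6 was lost in 10 of 15 alternatives, and those of Rpa1 and Rfc5 were lost or reversed in 8 and 7.

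The tumor line expressed most of the machinery at a higher level than the null BM-MSC it came from. It was higher for 34 of 41 genes, lower for 2, and 5 did not pass, with 11 changes of at least 2-fold. Much of the array moved each way in this comparison, with 34.5% of all genes called higher, 35.0% lower and 28.9% changed at least 2-fold. The median change of the members was 0.79 (1.73-fold), against -0.05 over all genes. Both tumor arrays lay above both null arrays for 35 members, against 41.4% of all genes.

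In licensing 3 of 4 genes were higher in the tumor line, from Cdc6 (0.80 ± 0.12) to Cdt1 (1.37 ± 0.05, 2.59-fold), while Cdc25a was lower (-0.17 ± 0.06, adjusted p = 0.0403), a call lost in 8 of 14 alternatives. All 11 helicase genes were higher, from Gins1 (0.13 ± 0.05) to Mcm5 (1.18 ± 0.08, 2.27-fold), and Gins3 was among them (0.49 ± 0.07). The call of Gins1 was lost in 9 of 14 alternatives. Of the polymerase genes 5 of 6 were higher, from Prim1 (0.85 ± 0.04) to Pold1 (1.62 ± 0.06, 3.07-fold), the largest change of all members. Prim2 read -0.06 ± 0.31 (adjusted p = 0.882).

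In the clamp group 7 of 10 were higher, from Rfc5 (0.68 ± 0.06) to Lig1 (1.43 ± 0.06, 2.69-fold). Pcna, the clamp itself, went the other way. It read 4.49 and 4.54 in wild-type ASC, 5.04 and 4.95 in wild-type BM-MSC, 5.56 and 5.67 in null ASC, 5.76 and 5.75 in null BM-MSC, with the tumor line at 5.09 and 5.12 (probe at chr2:132075022-132075054, minus strand, mm9). The tumor line thus stood near wild-type BM-MSC and below both null groups, and the change from null BM-MSC was -0.64 ± 0.06 (1.56-fold lower, adjusted p = 7.55e-05). Rfc3 (0.02 ± 0.08) and Fen1 (-0.09 ± 0.06) did not pass.

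Of the nucleotide supply genes Tk1 (0.74 ± 0.06) and Tyms (0.21 ± 0.08) were higher in the tumor line, and Rrm1 (0.06 ± 0.05) and Rrm2 (-0.08 ± 0.07) did not pass. All 6 chromatin genes were higher, from Chaf1b (0.16 ± 0.05) to Chaf1a (1.00 ± 0.06). The calls of Tyms and Chaf1b were lost in 8 and 6 of 14 alternatives. The fall of Cdc25a ran against the rise of the same gene in both null groups. It read 1.79 and 1.67 in wild-type ASC, 1.59 and 1.58 in wild-type BM-MSC, 2.29 and 2.38 in null ASC, 1.97 and 1.99 in null BM-MSC, with the tumor line at 1.78 and 1.84. The tumor line thus overlapped wild-type ASC, and both null groups lay above it.

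Against wild-type BM-MSC, which share arrays with the comparison of null with wild-type marrow, the tumor line was higher for 38 of 41 genes and lower for Rrm1 (-0.25 ± 0.05), with Pcna (0.11 ± 0.06) and Rrm2 (-0.10 ± 0.07) not passing. Of all genes tested 32.8% were called higher, 35.1% lower and 28.1% changed at least 2-fold. The members had 29 changes of at least 2-fold and a median of 1.31 (2.47-fold), against -0.06 over all genes. Licensing ran from Cdc25a (0.23 ± 0.06) to Cdt1 (2.29 ± 0.05, 4.89-fold), the helicase from Gins3 (0.33 ± 0.07) to Mcm5 (2.08 ± 0.08, 4.24-fold), and the polymerases from Prim2 (0.94 ± 0.31) to Pold1 (2.05 ± 0.06, 4.13-fold). The clamp group ran from Rfc3 (0.52 ± 0.08) to Lig1 (1.89 ± 0.06, 3.71-fold), nucleotide supply from Tyms (0.38 ± 0.08) to Tk1 (1.30 ± 0.06), and chromatin from Chaf1b (0.99 ± 0.05) to Chaf1a (1.62 ± 0.06, 3.08-fold). Rrm1 did not pass with the array median as the scale (adjusted p = 0.386).

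**Figure D4:**
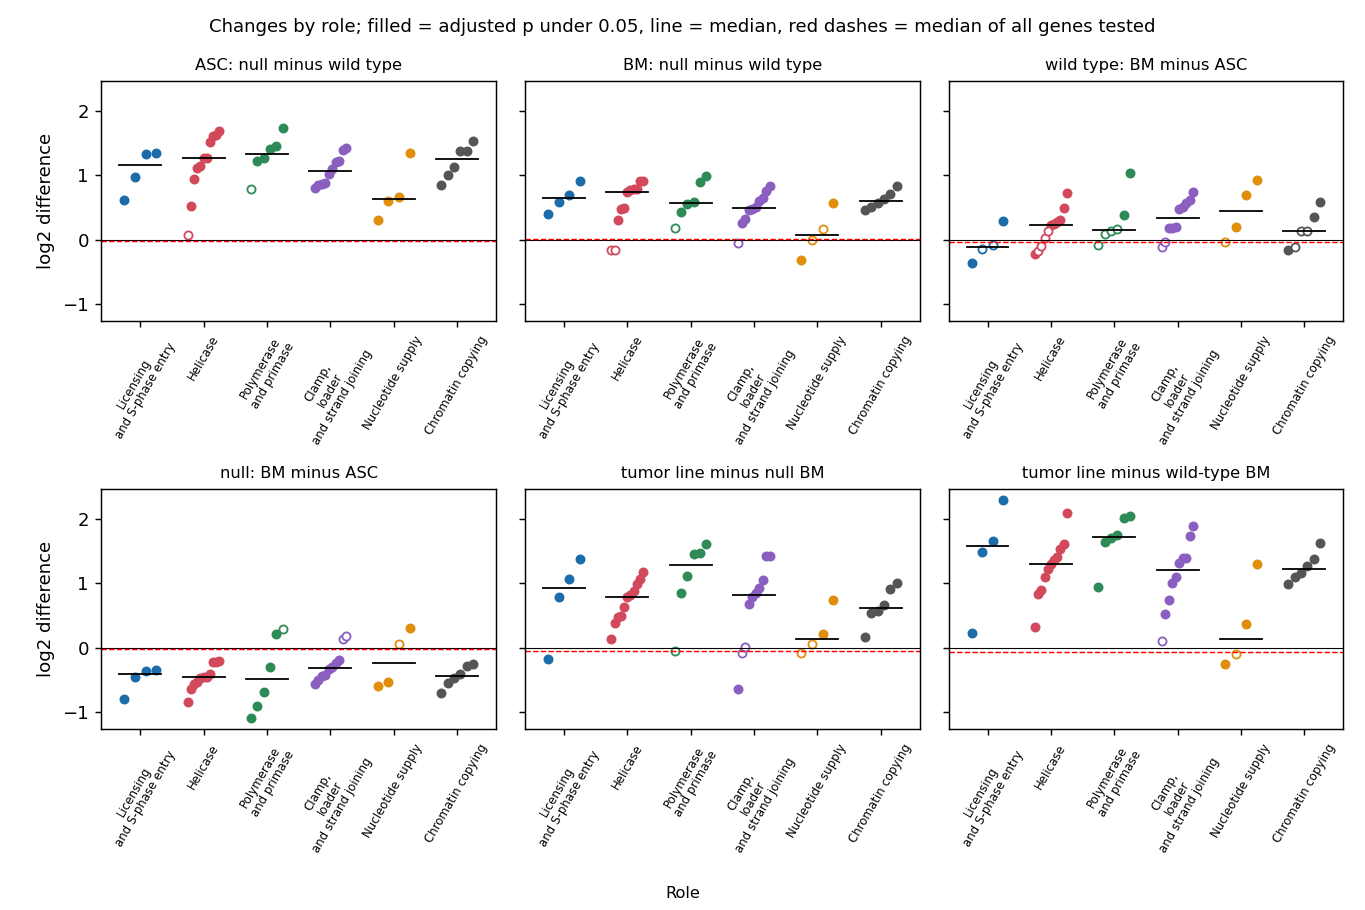
Log2 change of each replication gene in 6 comparisons (panels), grouped by role along the horizontal axis; filled points have an adjusted p under 0.05, short lines are the role medians and the red dashed line is the median of all genes tested. Nucleotide supply has the lowest median of the 6 roles in both null comparisons (0.63 in ASC and 0.08 in BM-MSC) and in both tumor line comparisons (0.13 and 0.14).

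For some genes more than 1 probe passed the filter on dim signals, and the weaker probe did not always give the same sign. In the tumor line against null BM-MSC the used probe of Rfc5 gave 0.68 and its weaker probe -0.49, and those of Rpa1 gave 0.79 and -0.13. From null ASC to null BM-MSC Rpa1 gave -0.23 and 0.80, and Cdc6 -0.35 and 0.06. From wild-type ASC to wild-type BM-MSC the pairs were -0.04 and 0.92 for Rpa1, 0.16 and -0.67 for Pole, -0.08 and 0.49 for Cdc6 and 0.20 and -0.03 for Rfc5. In both null comparisons all such pairs had the same sign, although the second probe of Gmnn gave 0.01 where the first gave 0.59 in BM-MSC.

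A further 46 replication genes are no members, such as the origin recognition complex, accessory polymerase subunits, fork protection factors and nucleotide enzymes. Outside the comparison of wild-type tissues they moved in the same directions with more exceptions. All but Rrm2b were tested. In null ASC 37 of 45 rose and 2 fell (median 0.93), against 20.5% and 20.9% of all genes tested. In null BM-MSC 32 rose and 6 fell (median 0.41), against 19.1% and 20.4%. In the difference of these changes 30 were lower in BM-MSC and 2 higher, Orc4 (0.36 ± 0.11) and Pold4 (0.22 ± 0.06). Of all genes 16.8% were lower and 15.0% higher. From null ASC to null BM-MSC 29 were lower and Orc4 was higher (0.32 ± 0.08), against 29.6% and 25.9% of all genes. From wild-type ASC to wild-type BM-MSC 20 were higher and 13 lower, against 25.8% and 28.1%. Here the lower calls lay near the share of all genes. The tumor line was higher than null BM-MSC for 35 and lower for 6 (median 0.77), against 34.5% and 35.0% of all genes. It was higher than wild-type BM-MSC for 37 and lower for 5 (median 1.22), against 32.8% and 35.1%.

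The largest rises in null ASC were those of Dut (2.31 ± 0.09), which keeps uracil out of DNA, Clspn (1.95 ± 0.16), a checkpoint mediator at the fork, and Dscc1 (1.90 ± 0.05), a part of an alternative clamp loader. Pold4 (-0.60 ± 0.05), the small subunit of polymerase delta, and Dctd (-0.49 ± 0.11), the deoxycytidylate deaminase, fell. In null BM-MSC the largest rises were Clspn (0.85 ± 0.16), Dna2 (0.80 ± 0.17) and Asf1b (0.79 ± 0.08), a histone chaperone, and the largest falls were Dctd (-0.96 ± 0.11), Pole4 (-0.51 ± 0.14) and Orc5 (-0.49 ± 0.12). The change was lowest in marrow relative to fat for Dut (-1.64 ± 0.13), Dscc1 (-1.49 ± 0.07) and the helicase Recql4 (-1.33 ± 0.14).

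Dctd stood out in the tumor line, where it was 2.77 ± 0.11 higher than in null BM-MSC after falling from wild type to null in both tissues. Shmt1 (2.53 ± 0.08), which feeds thymidylate synthesis, and Rnaseh2a (2.31 ± 0.06), the catalytic subunit of ribonuclease H2, came next. The largest falls were those of Asf1a (-1.32 ± 0.08), Orc4 (-0.96 ± 0.08) and Rnaseh2b (-0.88 ± 0.05). Against wild-type BM-MSC the extremes were Asf1b (2.54 ± 0.08), Rnaseh2a (2.44 ± 0.06) and Shmt1 (2.38 ± 0.08), and Asf1a (-0.93 ± 0.08), Orc4 (-0.64 ± 0.08) and Mcm9 (-0.51 ± 0.10). The histone chaperone paralogs Asf1a and Asf1b thus moved in opposite directions in the tumor line. Between null tissues Nasp (-1.42 ± 0.05), Dbf4 (-1.34 ± 0.09) and Shmt1 (-1.33 ± 0.08) were lowest in marrow. Between wild-type tissues Clspn (1.10 ± 0.16), Pole4 (0.92 ± 0.14) and Dut (0.80 ± 0.09) were highest and Dctd (-0.81 ± 0.11), Shmt1 (-0.81 ± 0.08) and Rnaseh2a (-0.68 ± 0.06) lowest in marrow.

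Markers of cycling cells moved alongside the machinery. The summed signal of 10 proliferation markers, in multiples of the 75th percentile, was 52.4 to 56.6 in wild-type ASC, 76.9 to 84.5 in wild-type BM-MSC, 150 to 154 in null ASC, 111 to 113 in null BM-MSC, with the tumor line at 236 to 238. By this sum the order of the groups was the common order of the replication genes. Birc5, at 6.60 in the tumor line, made up much of the sum. Single markers departed from that order. Plk1 was highest in null ASC (4.55, against 4.18 in the tumor line). Ccna2 read 3.89 in null BM-MSC and 3.84 in null ASC, a difference that did not pass. Of 9 tested markers (Aurkb was not), 9 rose in null ASC with a median of 1.51, against 20.5% of all genes. In null BM-MSC 8 rose with a median of 0.55, against 19.1% of all genes. In the tumor line 8 were higher than in null BM-MSC with a median of 0.76, and Cdk1, named after its value was seen, was lower (-0.85 ± 0.14). How much of each change in a replication gene goes with the share of cycling cells was not tested.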

How the data were processed

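Total RNA of 10 cultures was hybridised in 1 colour (Cy3), and the authors' deposited scanner files give background-subtracted intensity per spot, made by Agilent's Feature Extraction (version 10.7.3.1, per the file headers, which also place probes on mm9). Intensity was averaged as log2 over the non-outlier spots of a probe, and the log2 of the array's 75th percentile over non-control spots was subtracted. The deposited value table holds log2 values (r = 0.989 to 0.993 with the scanner values, slope 0.818 to 0.853, normalization not given in the sources used here) and served as an alternative only. A probe was kept where both arrays of any group had it well above background, and the brightest probe stood for a gene. Names came from accessions for 27214 of 55681 probes, from symbols for 3578, synonyms for 565 or a change of case for 41, and stayed as deposited for the rest. One model of 5 group means was fitted with limma 3.58.1 in R 4.3.3, with Benjamini-Hochberg adjustment over 22595 genes in each of 7 contrasts. The median SE was 0.0945 for a contrast of 2 groups. Precision is limited by the number of arrays. The fit was tested on simulated data.

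Members and lists were chosen with earlier results of these data known. Genes were named by rule: the largest and the smallest change past the threshold in each role and comparison, each member that went against its role, missed the threshold or had probes of opposite sign, and up to 3 further replication genes each way. Per-array values are given for the member with the widest range in each role, for members against their role, and for Cdc25a, Pcna and Rrm2, chosen after their values were seen. Replicate numbers did not pair the cultures (correlations of deviations -0.12 to 0.12 over 10 pairs of groups). Alternatives covered background correction, scaling, the filter, probe choice, variance model, groups fitted, a replicate block, the slide and each array left out.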

Additional observations from a re-analysis of the deposited data

Results flagged for a closer look

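For 36 members the change from wild type to null differed between the tissues by limma's test of the difference (change in BM-MSC minus change in ASC, log2, adjusted p under 0.05 over all genes tested). In all of them the change in BM-MSC was the lower one. In licensing these were Cdt1 (-0.42) and Gmnn (-0.75).

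In the helicase they were Mcm2 (-0.36), Mcm3 (-0.48), Mcm4 (-0.53), Mcm5 (-0.61), Mcm6 (-0.69), Mcm7 (-0.46), Mcm10 (-1.13), Gins1 (-0.93), Gins2 (-0.81) and Gins4 (-0.68). The polymerase genes were Pola1 (-0.68), Pola2 (-1.04), Prim1 (-0.83), Pold1 (-1.02) and Pole (-0.84).

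In the clamp and strand-joining group they were Pcna (-0.35), Rfc2 (-0.59), Rfc3 (-0.38), Rfc4 (-1.07), Rfc5 (-0.39), Rpa2 (-0.95), Rpa3 (-0.91), Fen1 (-0.39) and Lig1 (-0.74). All 4 nucleotide supply genes differed, Rrm1 (-0.62), Rrm2 (-0.62), Tyms (-0.50) and Tk1 (-0.79), as did all 6 chromatin genes, Chaf1a (-0.75), Chaf1b (-0.30), Uhrf1 (-0.86), Dnmt1 (-0.43), Hells (-0.82) and Ezh2 (-0.39). Of these Rrm1 alone was called in opposite directions, higher in null ASC and lower in null BM-MSC. The remaining signal of Rb1 and Trp53, higher in null BM-MSC than in null ASC, moved with these differences, and its part in them was not tested.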

How the results depend on the processing

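All counts here are of members past the threshold, higher or lower. With the array median as the scale, which moved the median change of all genes by over 0.1 in both tumor line comparisons, the difference of null effects had 21 lower calls (36 in the report). Under it null BM-MSC were lower than null ASC for 19 members (35), wild-type BM-MSC higher than wild-type ASC for 14 (22) and lower for 1 (3), and the lower calls came to 0 in null BM-MSC against wild type (1), 1 in the tumor line against null BM-MSC (2) and 0 against wild-type BM-MSC (1). With trend and robust variance the lower calls in null BM-MSC were 3, the higher calls between null tissues 4 (2) and the lower calls between wild-type tissues 6. Normexp, quantile normalization and the deposited value table each gave 2 lower calls in null BM-MSC. Between wild-type tissues normexp, no filter, the deposited table and a fit of only these groups each left 1 lower call, and that last fit 13 higher. In the tumor line against null BM-MSC no filter, only the groups compared and the replicate block each left 1 lower call. The cause was not tested.

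When the probes of a gene were averaged, 3 changes reversed, all in genes whose probes disagree: Rpa1 between null tissues (0.29) and between wild-type tissues (0.44), and Pole between wild-type tissues (-0.25). With 1 array left out the counts were 39 to 40 higher and 0 lower in null ASC, 32 to 33 and 1 in null BM-MSC, 0 higher and 31 to 36 lower for the difference, 2 and 29 to 32 between null tissues, 15 to 20 and 1 to 4 between wild-type tissues (1 without the second wild-type BM-MSC array, 4 without the first wild-type ASC array), 31 to 32 and 1 in the tumor line against null BM-MSC, and 37 to 38 and 1 against wild-type BM-MSC.

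With the replicate block, which the numbers do not support as a pairing, 39 rose and 0 fell in null ASC, 33 and 1 in null BM-MSC, 0 and 36 changed in the difference, 3 and 34 between null tissues, 21 and 2 between wild-type tissues, 33 and 1 in the tumor line against null BM-MSC, and 38 and 1 against wild-type BM-MSC. Calls kept under every alternative were 38 of 39 rises in null ASC, 29 of 34 in null BM-MSC, 21 of 36 lower calls in the difference, 19 of 35 lower calls between null tissues, 13 of 22 higher calls between wild-type tissues, and 30 of 34 and 36 of 38 higher calls in the tumor line (against null and wild-type BM-MSC). Of the fewer calls that went the other way, those kept were 0 of 1 in null BM-MSC, 2 of 2 between null tissues, 1 of 3 between wild-type tissues, and 1 of 2 and 0 of 1 in the tumor line. Of the single gene changes recomputed, 4144 kept direction and side of the threshold, 214 lost it, 26 gained it and 3 reversed. Prim2, a dim probe, varied most between duplicates.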
